A study of Mus musculus with 8 samples.

Results

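The machinery of pyroptosis and necroptosis was described through 10 genes, found by name among the 32098 genes of the expression table. They were the inflammasome sensors Nlrp3 and Aim2, the adaptor Pycard, the caspases Casp1 and Casp4, the gasdermins Gsdmd and Gsdme, the kinases Ripk1 and Ripk3, and the pseudokinase Mlkl. Each name matched 1 gene.

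Pyroptosis and necroptosis are forms of programmed cell death in which the plasma membrane is breached and the contents of the cell, inflammatory signals among them, escape. In pyroptosis a sensor such as NLRP3 or AIM2 gathers the adaptor ASC, the product of Pycard, and caspase-1. The caspase then cuts gasdermin D, whose freed fragment forms pores, and matures interleukin-1β and interleukin-18. In necroptosis RIPK1 and RIPK3 assemble when caspase-8 is not active, and RIPK3 phosphorylates MLKL, which moves to the membrane and breaks it. These steps run through cutting, assembly and phosphorylation of proteins already made, so RNA levels describe how much of the machinery's message was present and not whether it was at work.

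The RNA came from whole 4T1 tumours, 4T1 being a mammary carcinoma cell line of the mouse. Of the 8 tumours, 4 had radiation together with an immune checkpoint inhibitor (RI, replicates 1, 2, 4 and 5) and 4 had the inhibitor without radiation (ICI, replicates 1, 2, 3 and 4), so the inhibitor is common to both groups and no untreated tumour was analysed here. Its title names SFRP2+ fibroblasts and abscopal responses, those of tumours that radiation did not reach. Which inhibitor and which radiation dose were used, and whether an RI tumour lay in the irradiated field, is not given in the labels. Although the design text gives 3 replicates for each group, 4 tumours of each were listed and all were used. Separate animals are not stated either, so each p-value reflects how much these samples varied, and some of that variation may be technical.

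Values are FPKM, fragments per kilobase of exon scaled to library size, as deposited. Depth recovered from the steps between low values lay between 27013100 and 42622700 fragments per library, and the 10 genes held between 48 fragments (Pycard) and 5168 fragments (Gsdmd) in a tumour, so that a reading of 0 occurred for none of them. Tumours ICI 1 and RI 4 stood apart from the other tumours. In ICI 1 the 11 neutrophil markers summed to 22585 FPKM, whereas the sum reached at most 677 in the other ICI tumours and lay between 20.2 and 81.4 in RI tumours. In RI 4, 3 genes that resemble ribosomal RNA took 60.7% of the summed FPKM, whereas the share in the other RI tumours was 1.02% to 1.54%. Nuclear fragments are those of annotated genes outside the mitochondrial genome. Scaled to them, FPKM are multiplied by 1.25 in RI 4 and by 1.03 to 1.10 in the other tumours. Values of RI 4 as deposited are thus low relative to that scale. Of the epithelial markers, Krt8 and Krt18 were high in all 8 tumours, between 333 and 1064 FPKM, but Epcam, a defining epithelial marker, was between 0 and 1.06 FPKM in RI tumours and between 0.0372 and 5.02 FPKM in ICI tumours. Since each library is a whole tumour, fewer cells of a type and less RNA per cell cannot be told apart in any difference given here.

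Among the 10 genes, 9 reached at least 1 FPKM in at least 4 tumours and were tested with limma on log2(FPKM + 1), with Benjamini-Hochberg adjustment over all 13439 genes tested. Of these 9, 1 passed at an adjusted p under 0.05 and 8 did not, whereas 17.7% of all genes tested passed. None rose in RI tumours, where 11.1% of all genes did. One gene, Gsdme, fell, and 6.60% of all genes did. With 9 genes, these shares are near the background, and no claim about the machinery as a whole rests on them. At an unadjusted p under 0.05 there were 4 genes, Gsdme and Casp1 lower and Ripk1 and Mlkl higher in RI tumours, and 35.9% of all genes met that threshold. The voom method of limma, run on the recovered fragments, called 3470 of 13330 genes. Of the 9 it called 3, Gsdme lower and Ripk1 and Mlkl higher. The groups did not overlap for 3 of the 9 genes, Gsdme, Casp1 and Mlkl, and for 27.9% of all genes. Of the 9 differences 7 were below 0, with a median of −0.48 on the log2 scale over the 9 genes, and the median over all genes tested was 0.01. With ICI 1 and RI 4 left out, the median over all genes was 0.09. Gsdmd and Nlrp3 were then above 0, at 0.12 and 0.13. Casp4, Aim2 and Ripk3 were at −0.10, −0.08 and −0.12, and Gsdme and Casp1 at −0.39 and −0.36. Low FPKM values are compressed on this scale, so changes of weakly expressed genes are understated. Under the other settings tried, 0 to 2 of the genes passed in each direction, while 3 to 3470 of all genes passed in either direction.

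**Figure D1:**
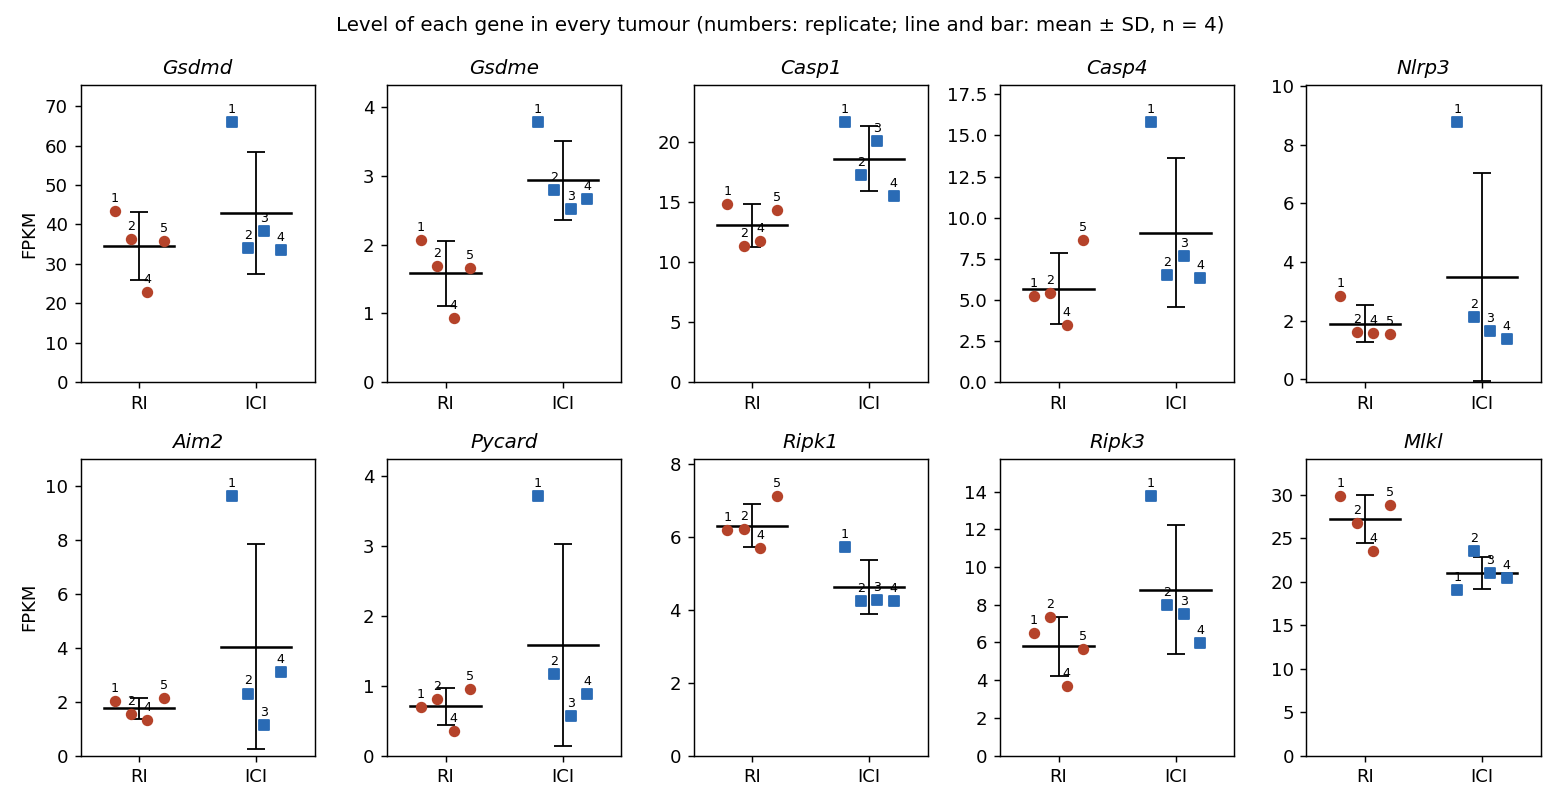
FPKM of the 10 genes in each of the 4 RI (circles) and 4 ICI (squares) tumours, with the replicate number above each point; the horizontal line is the mean and the bar the SD. Tumour ICI 1 is the highest of the 8 for 8 genes, all but Ripk1 and Mlkl, and the groups stand apart without overlap for Gsdme, Casp1 and Mlkl.

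The sensors come first in the pyroptotic pathway. NLRP3 responds to many kinds of disturbance in the cell, potassium loss among them. Nlrp3 had 2.84, 1.60, 1.58 and 1.55 FPKM in RI 1, 2, 4 and 5, against 8.78, 2.13, 1.65 and 1.36 FPKM in ICI 1, 2, 3 and 4. One tumour, ICI 1, was far above the rest, at 5.32 times the median of the other ICI tumours, and apart from it the groups overlapped. The difference was −0.39 ± 0.42 (SE; limma adjusted p = 0.533). Without ICI 1 it was 0.08 (adjusted p = 0.801), with a 95% interval from −0.37 to 0.52.

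AIM2 binds double-stranded DNA in the cytosol. Aim2 had 2.04, 1.55, 1.31 and 2.13 FPKM in RI 1, 2, 4 and 5, and 9.62, 2.30, 1.13 and 3.10 FPKM in ICI 1, 2, 3 and 4. Both the highest and the lowest of the 8 values were ICI tumours, and the RI values lay between them. Its difference of −0.61 ± 0.42 did not pass (limma adjusted p = 0.328), and without ICI 1 it was −0.16 (adjusted p = 0.639).

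Pycard encodes ASC, which links a sensor to caspase-1. It had 0.701, 0.818, 0.347 and 0.951 FPKM in RI 1, 2, 4 and 5, against 3.72, 1.17, 0.574 and 0.878 FPKM in ICI 1, 2, 3 and 4. Only 2 tumours, ICI 1 and ICI 2, reached 1 FPKM, so Pycard was outside the limma fit. On log2(FPKM + 1) the difference was −0.48, with an exact permutation p of 0.257 (two-sided, 70 regroupings, of which the smallest p is 0.0286), and it was −0.14 without ICI 1. Of the bases in Pycard exons, 12.8% also belong to exons of Gm45205, an annotated gene on the opposite strand. Whether the counting used strand is not given in the sources used here, so reads there cannot be assigned to one or the other.

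The inflammasome caspases are neighbours on chromosome 9, Casp1 at chr9:5298517-5307265 and Casp4 at chr9:5308828-5336783 (GRCm38, GENCODE M21, plus strand). Caspase-1 cuts gasdermin D and the precursors of interleukin-1β and interleukin-18. Casp1 had 14.8, 11.3, 11.7 and 14.3 FPKM in RI 1, 2, 4 and 5, against 21.6, 17.2, 20.0 and 15.5 FPKM in ICI 1, 2, 3 and 4. Every RI tumour was below every ICI tumour, the nearest being RI 1 and ICI 4. The mean was 13.0 ± 1.79 FPKM in RI tumours and 18.6 ± 2.75 FPKM in ICI tumours (SD, n = 4 each), but the difference of −0.48 ± 0.15 did not pass (limma adjusted p = 0.0575). Casp1 has 1497 exon bases, and the 1335 tested genes of like length, 783 to 1597 bases, had a median difference of −0.28. With the trends on exon length and GC content removed within each library, its difference was −0.27 (adjusted p = 0.280). Scaled to nuclear fragments it was −0.47 and passed (limma adjusted p = 0.036), a setting in which 3369 of 13439 genes passed.

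Casp4 of the mouse encodes the caspase that recognises bacterial lipopolysaccharide in the cytosol and cuts gasdermin D without an inflammasome. It had 5.23, 5.39, 3.44 and 8.66 FPKM in RI 1, 2, 4 and 5, and 15.8, 6.50, 7.64 and 6.32 FPKM in ICI 1, 2, 3 and 4. RI 5 was above 3 of the 4 ICI tumours, and ICI 1 was 2.43 times the median of the other ICI tumours. The difference of −0.56 ± 0.31 did not pass (limma adjusted p = 0.225). It was −0.28 without ICI 1 (adjusted p = 0.408) and −0.10 without ICI 1 and RI 4 (adjusted p = 0.716).

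Gasdermin D is the pore former that both caspases cut. Gsdmd was the most abundant of the 10 messages, with 43.3, 36.4, 22.8 and 35.9 FPKM in RI 1, 2, 4 and 5 and 66.0, 34.0, 38.2 and 33.6 FPKM in ICI 1, 2, 3 and 4. The medians coincided, at 36.1 FPKM in RI tumours and 36.1 FPKM in ICI tumours. The mean was 34.6 ± 8.59 FPKM in RI tumours, with RI 4 at the low end, and 43.0 ± 15.5 FPKM in ICI tumours, with ICI 1 at the high end (SD, n = 4 each). The difference was −0.28 ± 0.26 (limma adjusted p = 0.464), and with both of those tumours left out it was 0.12 (adjusted p = 0.475; 95% interval −0.15 to 0.39).

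Gasdermin E is another pore former, and granzyme B of cytotoxic lymphocytes is among the proteases that cut it. Gsdme had 2.06, 1.69, 0.926 and 1.65 FPKM in RI 1, 2, 4 and 5, against 3.78, 2.80, 2.51 and 2.66 FPKM in ICI 1, 2, 3 and 4. All RI tumours were below all ICI tumours, and RI 4 was the lowest. The RI mean of 1.58 ± 0.475 FPKM was 0.538 times the ICI mean of 2.94 ± 0.575 FPKM (SD, n = 4 each). Gsdme fell by 0.62 ± 0.18 on the log2 scale (limma adjusted p = 0.0470; 95% interval −1.03 to −0.21). The call was lost whenever any 1 of the 8 tumours was left out, with adjusted p between 0.0596 and 0.0977 and differences between −0.71 and −0.48, and RI stayed the lower group each time. Gsdme is the longest of the 10, with 12742 exon bases, and the 1333 tested genes of 9174 bases or more had a median difference of 0.27. With the length and GC trends removed, its difference was −0.96 (adjusted p = 0.0129).

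**Figure D2:**
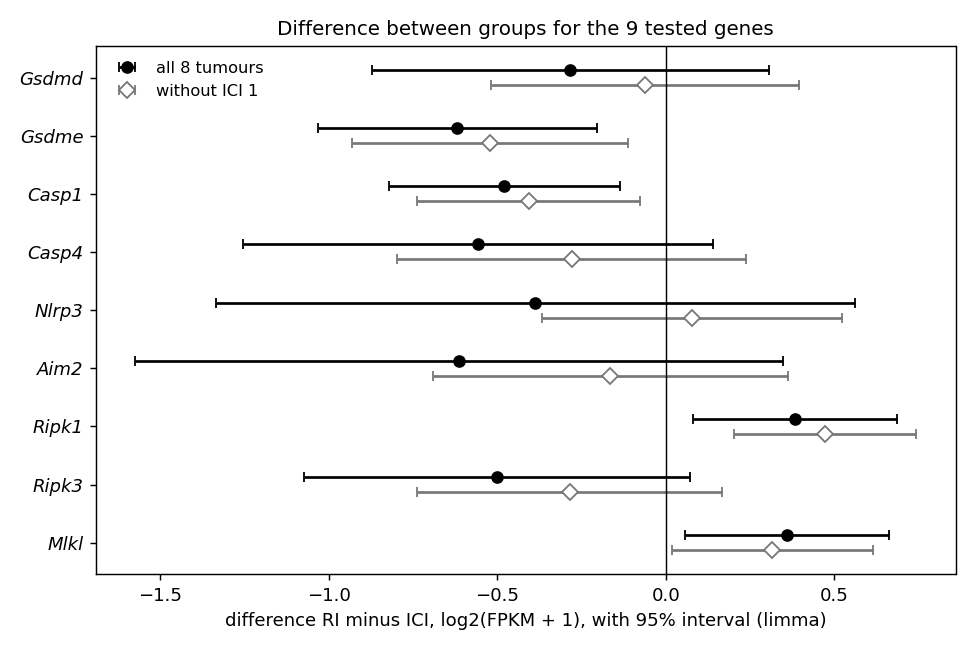
Difference RI minus ICI on log2(FPKM + 1) for the 9 tested genes with its 95% interval from limma, over all 8 tumours (filled circles) and without ICI 1 (open diamonds). Of the 9, Gsdme, Casp1, Ripk1 and Mlkl have intervals that leave out 0, and leaving out ICI 1 shifts Nlrp3 and Aim2 the most.

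The necroptotic genes lie on chromosomes 13, 14 and 8. RIPK1 is the kinase at which tumour necrosis factor signalling branches into survival or death. Ripk1 (chr13:34002363-34037147, plus strand) had 6.18, 6.20, 5.70 and 7.12 FPKM in RI 1, 2, 4 and 5, against 5.72, 4.23, 4.27 and 4.23 FPKM in ICI 1, 2, 3 and 4. In FPKM as deposited, the RI values were above the ICI values except that ICI 1 came just above RI 4. The difference of 0.38 ± 0.13 did not pass (limma adjusted p = 0.0742). Without ICI 1 it was 0.47 and passed (adjusted p = 0.0266), whereas with the length and GC trends removed it was 0.08 (adjusted p = 0.671). Scaled to nuclear fragments it was 0.40 and passed (limma adjusted p = 0.0418). Ripk1 has 8344 exon bases, and the 1333 tested genes of 6901 to 9160 bases had a median difference of 0.22. Of its exon bases, 9.01% are shared with Serpinb6a on the opposite strand or with Gm17084.

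RIPK3 is the kinase that commits a cell to necroptosis. Ripk3 (chr14:55784995-55788865, minus strand) had 6.51, 7.34, 3.68 and 5.67 FPKM in RI 1, 2, 4 and 5, and 13.8, 7.96, 7.50 and 5.98 FPKM in ICI 1, 2, 3 and 4. RI 1 and RI 2 were above ICI 4, the extremes were ICI 1 and RI 4, and the difference of −0.50 ± 0.25 did not pass (limma adjusted p = 0.187). With ICI 1 and RI 4 left out it was −0.12 (adjusted p = 0.575).

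MLKL is the executioner of necroptosis. Mlkl (chr8:111311797-111338177, minus strand) had 29.9, 26.8, 23.6 and 28.8 FPKM in RI 1, 2, 4 and 5, against 19.1, 23.5, 21.1 and 20.4 FPKM in ICI 1, 2, 3 and 4. All RI tumours were above all ICI tumours, though RI 4 and ICI 2 nearly touched, at 23.6 and 23.5 FPKM as deposited. The mean was 27.3 ± 2.77 FPKM in RI tumours and 21.0 ± 1.87 FPKM in ICI tumours (SD, n = 4 each). The difference of 0.36 ± 0.13 did not pass (limma adjusted p = 0.0883; 95% interval 0.06 to 0.66). With the length and GC trends removed it was 0.40 and passed (adjusted p = 0.0200). Scaled to nuclear fragments it was 0.37 and passed (limma adjusted p = 0.0297).

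The promoters of the necroptotic genes are shown for description. Ripk1 and Mlkl were higher and Ripk3 lower in RI tumours on average, but none of these differences passed in the main fit. Interferon-responsive genes, described further on, rose in the same tumours, and any link between them and these levels was not tested. Each sequence runs from 250 bases before to 50 bases after a RefSeq transcription start (GRCm38.p6), 5′ to 3′ on the gene's strand, and capitals mark matches to GAAANNGAA, a short form of the interferon-stimulated response element, or to TTCNNNGAA, the gamma-activated sequence bound by STAT proteins. Ripk1 has 2 such starts, and the downstream one is printed.
Ripk1, chr13:34002624-34002923 (plus strand): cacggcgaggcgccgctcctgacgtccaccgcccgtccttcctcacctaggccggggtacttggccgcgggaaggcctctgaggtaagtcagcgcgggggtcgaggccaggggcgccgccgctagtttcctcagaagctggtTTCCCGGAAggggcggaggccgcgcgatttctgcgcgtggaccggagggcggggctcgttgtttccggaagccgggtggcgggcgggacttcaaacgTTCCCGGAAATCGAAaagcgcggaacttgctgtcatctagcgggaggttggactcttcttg
Ripk3, chr14:55788808-55789107 (minus strand): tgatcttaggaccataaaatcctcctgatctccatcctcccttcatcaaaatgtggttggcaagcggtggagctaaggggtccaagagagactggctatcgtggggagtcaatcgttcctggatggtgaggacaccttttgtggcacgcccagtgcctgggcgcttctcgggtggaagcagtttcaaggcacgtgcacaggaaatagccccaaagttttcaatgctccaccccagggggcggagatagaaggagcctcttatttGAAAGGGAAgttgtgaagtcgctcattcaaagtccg
Mlkl, chr8:111338156-111338455 (minus strand): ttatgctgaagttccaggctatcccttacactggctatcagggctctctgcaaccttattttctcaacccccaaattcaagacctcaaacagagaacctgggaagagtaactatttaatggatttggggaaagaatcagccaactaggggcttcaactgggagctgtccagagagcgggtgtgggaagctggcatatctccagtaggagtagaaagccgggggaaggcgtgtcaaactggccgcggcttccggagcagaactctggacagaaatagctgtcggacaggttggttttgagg
The Ripk1 window holds TTCNNNGAA beginning at positions −108 and −11, counted from the start, and GAAANNGAA at −5, which overlaps the second of them. The Ripk3 window holds GAAANNGAA at position 15, and no match lies in the Mlkl window. Both strands were searched. Of all 32851 promoters in the table, 8.56% hold GAAANNGAA and 8.30% hold TTCNNNGAA. Of the 10 genes 9 have a promoter in the table, and the other promoters, those of Gsdme, Casp1, Casp4, Nlrp3, Aim2, Pycard and the upstream start of Ripk1, hold neither motif. A match is a description of the letters, and binding was not measured.

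Ratios of FPKM between genes inside a tumour do not depend on how the library was scaled. The ratios tested had 0.1 FPKM added to each gene, so some dependence remains where values are low. For 5 pairs with related roles they were compared by exact permutation tests (two-sided, 70 regroupings, Benjamini-Hochberg adjustment over the 5). For 3 pairs the groups did not overlap and the exact p was 0.0286, the smallest that 4 against 4 can give (adjusted p = 0.0476). The share of all gene pairs whose ratios separate the groups was not computed, and 27.9% of single genes do not overlap. The pairs were chosen by role, among genes picked with earlier results known, so no claim about the machinery rests on these 3. Gsdme was between 0.0407 and 0.0475 of Gsdmd in RI tumours and between 0.0573 and 0.0822 of it in ICI tumours, a log2 difference of −0.60 after adding 0.1 FPKM to each gene. After adding 1 FPKM, which weighs on the low Gsdme values, the difference was −0.34 and the exact p 0.114. The 4 RI ratios were close together, with an SD of 0.07 on the log2 scale, against 0.25 in ICI tumours.

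The order of the kinases was not the same in every tumour. Ripk3 was 1.05, 1.18, 0.646 and 0.797 times Ripk1 in RI 1, 2, 4 and 5, against 2.41, 1.88, 1.75 and 1.41 times Ripk1 in ICI 1, 2, 3 and 4. Ripk3 was thus the more abundant message per length in 4 of 4 ICI tumours and in 2 of 4 RI tumours, with a log2 difference of −1.02. Mlkl was 4.59, 3.65, 6.41 and 5.08 times Ripk3 in RI 1, 2, 4 and 5, against 1.38, 2.95, 2.81 and 3.41 times in ICI 1, 2, 3 and 4, a log2 difference of 0.94. These ratios share Ripk3 and are not independent of each other. With the length and GC trends removed from both genes, the difference was −1.07 for Gsdme to Gsdmd (exact p = 0.0286), −0.59 for Ripk3 to Ripk1 (exact p = 0.0571) and 0.85 for Mlkl to Ripk3 (exact p = 0.0571). With ICI 1 and RI 4 left out it was −0.67 for Gsdme to Gsdmd, −0.73 for Ripk3 to Ripk1 and 0.53 for Mlkl to Ripk3, each at p = 0.1, the smallest an exact permutation test of 3 against 3 can give.

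For the remaining pairs the groups overlapped. Casp4 was between 0.293 and 0.605 times Casp1 in RI tumours and between 0.377 and 0.731 times in ICI tumours, with a log2 difference of −0.12 (exact p = 0.686). Aim2 was between 0.719 and 1.38 times Nlrp3 in RI tumours and between 0.683 and 2.28 times in ICI tumours, with a log2 difference of −0.29 (exact p = 0.543).

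**Figure D3:**
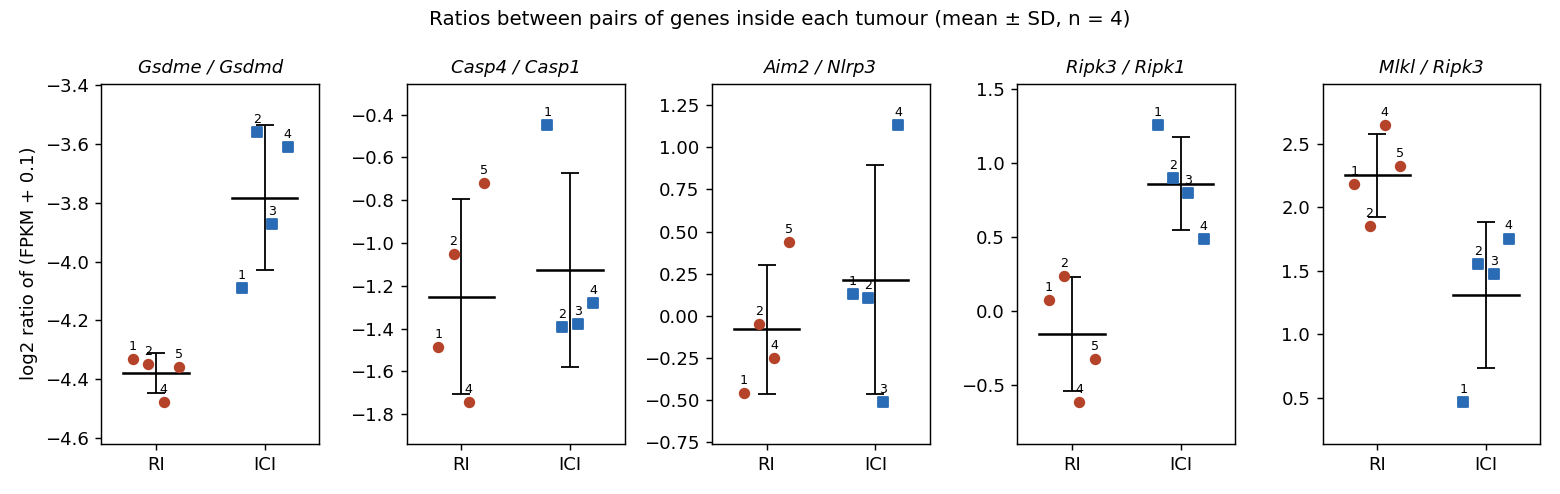
Log2 ratio of (FPKM + 0.1) between 5 pairs of genes in each RI (circles) and ICI (squares) tumour, numbered by replicate, with the mean as a line and the SD as a bar (n = 4); each panel has its own axis. The groups stand apart for Gsdme to Gsdmd, Ripk3 to Ripk1 and Mlkl to Ripk3 and overlap for the other pairs.

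By mean FPKM over the 8 tumours the order was Gsdmd at 38.8, Mlkl at 24.1, Casp1 at 15.8, Casp4 at 7.37, Ripk3 at 7.30, Ripk1 at 5.46, Aim2 at 2.90, Nlrp3 at 2.69, Gsdme at 2.26 and Pycard at 1.15. The executioners Gsdmd and Mlkl thus headed the order, and the adaptor Pycard was the lowest in 8 of 8 tumours. Gsdmd was the highest in 7 tumours and Mlkl in RI 4. Of the 9 pairs of neighbours in this order, 2 kept it in all 8 tumours, Casp1 above Casp4 and Gsdme above Pycard. Casp4 was above Ripk3 in 4 of 8 tumours, Aim2 above Nlrp3 in 4 and Nlrp3 above Gsdme in 3, while Ripk3 was above Ripk1 in 6 and Gsdmd above Mlkl, Mlkl above Casp1 and Ripk1 above Aim2 in 7 each. The length behind each FPKM is that of all annotated exons together, so a gene with long exons that are little used reads low in such an order.

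The spread between tumours was in large part a contrast of ICI 1 with the rest. In FPKM as deposited, 8 of the 10 genes were highest in ICI 1. Of the 10, 5 were lowest in RI 4, the tumour with the multiplier of 1.25 per nuclear fragment. Relative to the median of the other ICI tumours, ICI 1 was 5.32 times higher for Nlrp3, 4.24 times for Pycard, 4.18 times for Aim2, 2.43 times for Casp4, 1.94 times for Gsdmd and 1.84 times for Ripk3, whereas for Mlkl the ratio was 0.905. Neutrophil markers moved with this. Of 11, 9 were tested with limma, and 2 fell in RI tumours (S100a8 and S100a9), as did 6.60% of all genes. At an unadjusted p under 0.05, met by 35.9% of all genes in either direction, 7 of these markers were lower, and voom called none. Their summed FPKM was 20.2 to 81.4 in RI tumours and 215 to 22585 in ICI tumours. Ly6g, a defining neutrophil marker, was at most 0.0393 FPKM in RI tumours, against 18.5 FPKM in ICI 1 and at most 0.868 FPKM in the other ICI tumours. Macrophage markers summed to 343 to 841 FPKM in RI tumours and 351 to 450 FPKM in ICI tumours, and 2 of 9 tested rose (Adgre1 and Mrc1). The sums of several other marker lists were also highest in ICI 1 among the ICI tumours. Endothelial markers summed to 14.96 to 39.2 FPKM in RI tumours, against 102 FPKM in ICI 1 and at most 23.3 FPKM in the other ICI tumours. B and plasma cell markers summed to 1.62 to 5.51 FPKM in RI tumours, against 41.4 FPKM in ICI 1 and at most 8.004 FPKM in the others. Erythroid markers summed to 0.465 to 103 FPKM in RI tumours, against 1064 FPKM in ICI 1 and at most 577 FPKM in the others, and NK cell markers to 3.75 to 7.32 FPKM in RI tumours, against 9.53 FPKM in ICI 1 and at most 4.20 FPKM in the others. T cell markers summed to 31.7 FPKM in ICI 1 and at most 23.7 FPKM in the others, and dendritic cell markers to 13.1 and at most 7.53 FPKM. Epithelial markers had their lowest ICI sum in ICI 1, at 957 FPKM against up to 1985 FPKM. Their mean log2(FPKM + 1) was 3.56 in ICI 1 and 2.84 to 3.88 in the other ICI tumours. Fibroblast markers summed to 118 to 530 FPKM in RI tumours and 61.3 to 80.6 FPKM in ICI tumours, and 4 of 8 tested rose. Skeletal muscle markers summed to 102 to 541 FPKM in RI tumours, highest in RI 4, and 1.88 to 229 FPKM in ICI tumours, and 2 of 6 rose. The part of any of these cell types in the levels of the 10 genes was not tested.

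**Figure D4:**
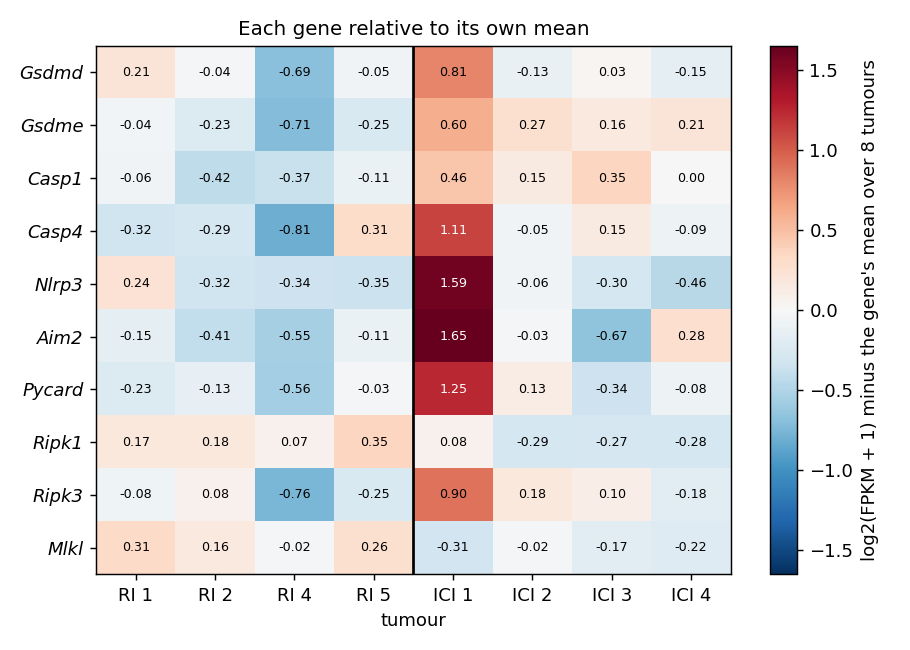
Level of each of the 10 genes in each tumour on log2(FPKM + 1), as the difference from the gene's own mean over the 8 tumours (red above, blue below), with the RI tumours left of the line and the ICI tumours right of it. The ICI 1 column is above the mean for all genes but Mlkl, by up to 1.65 for Aim2, and Mlkl and Ripk1 are the rows in which RI tumours are on the higher side.

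Profiles over the 8 tumours were compared by Euclidean distance after each gene's log2(FPKM + 1) was set to mean 0 and SD 1. Among the 9 tested genes the mutual nearest pairs were Gsdmd and Ripk3 at 1.08, Aim2 and Nlrp3 at 1.37, and Ripk1 and Mlkl at 2.17. Over all 13439 tested genes each had nearer neighbours outside the machinery, which so large a pool makes likely for any small set. The names that follow describe the profiles only. The nearest was Rere for Ripk1 (0.217), Pcmtd2 for Ripk3 (0.283), Thap3 for Gsdme (0.346), Pigq for Mlkl (0.389), B3gat3 for Gsdmd (0.407), Wdr53 for Casp4 (0.422), Plcb2 for Nlrp3 (0.454), Adpgk for Aim2 (0.480) and Bbs10 for Casp1 (0.666).

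The other genes of both pathways were read from lists of sensors, helpers, cytokines, proteases, receptors and brakes. Of 92 such genes that are not among the 10, 86 were in the table and 68 were tested, and 10 rose, 2 fell and 56 did not pass in RI tumours (limma, adjusted p under 0.05). That is 17.6% of those tested, against the 17.7% of all genes given above, with a median difference of 0.12.

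Among the DNA-binding relatives of AIM2, 3 of 8 tested rose. Ifi204 had 37.6 to 57.9 FPKM in RI tumours and 17.7 to 35.6 FPKM in ICI tumours (difference 0.86). Ifi211 had 24.6 to 35.3 FPKM in RI tumours and 7.47 to 16.5 FPKM in ICI tumours (difference 1.42), and Ifi205 differed by 1.16. Aim2 itself, a member of the same family, was the one of the 8 with a negative difference.

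Of 14 tested genes in the list of adaptor, caspases and helpers, 1 rose and 1 fell. Gbp3, an interferon-inducible GTPase, had 47.9 to 77.3 FPKM in RI tumours and 17.3 to 36.7 FPKM in ICI tumours (difference 0.98, limma adjusted p = 0.0339). Card19 fell by 0.79, with 26.7 to 37.8 FPKM in RI tumours and 52.4 to 71.9 FPKM in ICI tumours, and by 0.46 with the length and GC trends removed. Gbp2, the most abundant of the list and of the same GTPase family, had 101 to 280 FPKM in RI tumours and 38.7 to 131 FPKM in ICI tumours and did not pass (adjusted p = 0.0649).

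None of 6 tested sensors passed in limma. One, Naip2, a receptor for bacterial secretion proteins and the most abundant sensor, had an unadjusted p under 0.05, and voom on recovered fragments called none. None of 9 tested cytokine genes and their brakes passed either. Of the 9, 4 had an unadjusted p under 0.05, as did 35.9% of all genes. Voom called 3470 of 13330 genes, and 2 of this list, Il18bp and Il1r1. Il1r2, the decoy receptor of interleukin-1, had the highest mean of that list over the 8 tumours, which rests on ICI 1. It had 3.73 to 4.19 FPKM in RI tumours, against 128 FPKM in ICI 1 and 7.13 to 13.4 FPKM in the other ICI tumours (adjusted p = 0.0835). Il1b, picked out after its values were seen as the main product of caspase-1, had 2.45 to 12.0 FPKM in RI tumours and 10.4 to 34.3 FPKM in ICI tumours (difference −1.57, adjusted p = 0.0536).

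Of 8 tested proteases that cut gasdermins, 2 rose. Gzmb, which encodes granzyme B, had 23.4 to 61.6 FPKM in RI tumours and 2.19 to 26.2 FPKM in ICI tumours (difference 2.25, limma adjusted p = 0.0481), the groups overlapping through RI 5 and ICI 2. Gzma, which in human cells cuts gasdermin B, had 4.20 to 17.1 FPKM in RI tumours and 0.397 to 2.72 FPKM in ICI tumours (difference 1.96, adjusted p = 0.0234). No gene for gasdermin B was among the mouse gasdermins listed here, so the rise of Gzma says nothing about their cutting.

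Among 11 tested triggers of necroptosis 2 rose and 1 fell. Tlr3, a receptor for double-stranded RNA, had 7.53 to 8.83 FPKM in RI tumours and 2.89 to 5.14 FPKM in ICI tumours (difference 0.82, limma adjusted p = 0.0162), and Tlr4, the receptor for lipopolysaccharide, had 5.95 to 6.63 FPKM in RI tumours and 2.43 to 4.19 FPKM in ICI tumours (difference 0.72). Tradd, an adaptor of the tumour necrosis factor receptor, fell by 0.61, with 7.60 to 12.4 FPKM in RI tumours and 14.6 to 19.1 FPKM in ICI tumours, and by 0.33 with the length and GC trends removed. Tnfrsf1a, that receptor and the most abundant of the list, did not pass (−0.23, adjusted p = 0.456). Among 23 tested genes of the RIPK1 complexes and their brakes, 2 rose: Cyld, which removes ubiquitin chains from RIPK1, by 0.56, and Map3k7, whose product TAK1 restrains RIPK1, by 0.49. With the length and GC trends removed neither passed, with 0.26 for Cyld (limma adjusted p = 0.0961) and 0.27 for Map3k7 (adjusted p = 0.0528).

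Interferon-responsive genes were read in the same fit, from a list taken up with its direction known. Of 19 tested, 14 rose, where 11.1% of all genes did, with a median difference of 1.16. Ifit2 had 8.82 to 14.7 FPKM in RI tumours and 2.82 to 4.82 FPKM in ICI tumours (difference 1.44, limma adjusted p = 0.0115). Of these 14 genes, 6 were still called with no filter on low values and 7 when ICI 4 was left out. Leaving out RI 1 or RI 2 kept 9 each, and leaving out RI 5 kept 10. Of the 12 called pathway genes, 2 were still called without ICI 4 (Ifi211 and Tlr3), 2 without RI 2 (Ifi211 and Card19), 5 without RI 1 and 5 without RI 5, and 4 with TPM and 0 with no filter on low values.

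**Figure D5:**
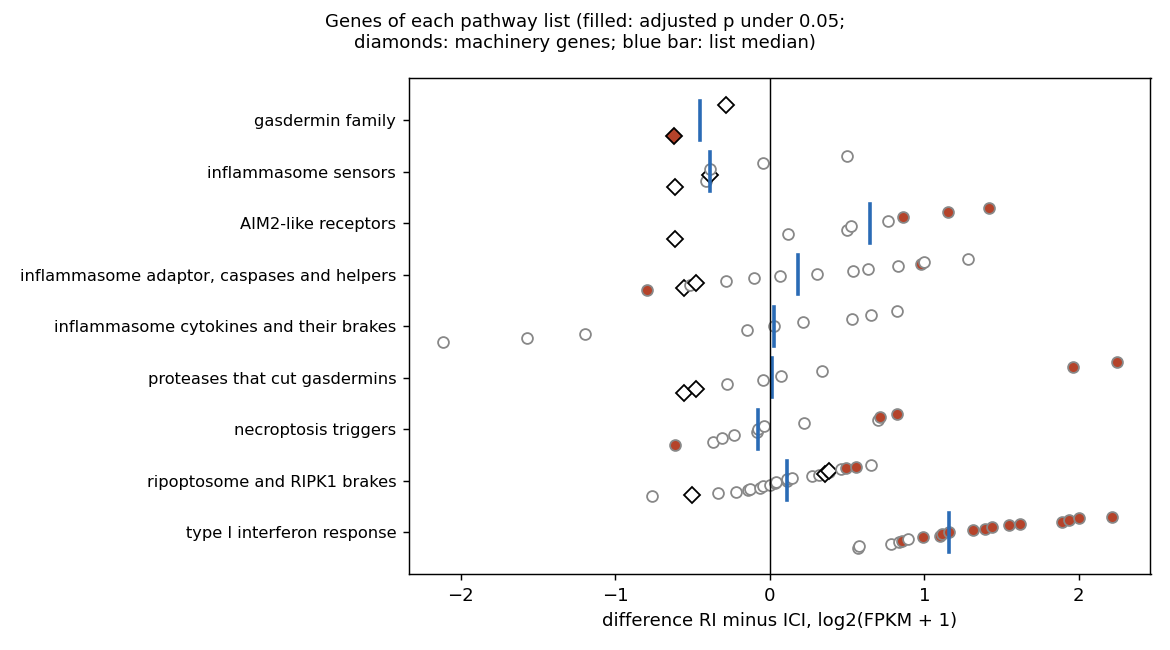
Difference RI minus ICI on log2(FPKM + 1) for every tested gene of 8 pathway lists and of the type I interferon response, 1 point per gene, filled where the adjusted p is under 0.05; diamonds are the 9 tested genes of the machinery and blue bars the list medians. Gsdme is the only filled diamond, and the medians of the pathway lists run from −0.45 to 0.65, whereas that of the interferon list is 1.16.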

How the data were processed

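RNA sequencing of 8 mouse tumours was deposited by the authors as 1 table of FPKM. HISAT2 and GRCm38 (mm10) are named, without versions, per the submitters' processing notes, while the sources used here do not give the counting program, annotation or filters. Groups came from the sample titles. Of 32098 gene rows, 31407 matched GENCODE M21 on GRCm38 by identifier, which gave coordinates and exon lengths. The value of 1 fragment was recovered for each library from low FPKM times exon length, and 98.6% to 98.8% of such values lay within 0.05 of a whole number. Libraries of a group all differed by more than sampling noise, with a chi-square of 29.97 or more per gene.

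The 13439 genes that reached 1 FPKM in 4 or more tumours were tested two-sided with limma 3.58.1 in R 4.3.3 (lmFit, eBayes with trend and robust variance) on log2(FPKM + 1), without covariates, after the test had been tried on simulated data. Gene-wise adjusted p-values are limma's, by the Benjamini-Hochberg method over all genes tested, called under 0.05. Pycard and 5 ratios were compared by exact permutation tests. Genes named from each list are those called plus the most abundant member, 1 of which is not reported here, and for each machinery gene those nearest in profile. Deviations from the group means correlated at −0.09, −0.12 and −0.12 for tumours of the same number (1, 2 and 4), and at −0.15 to 0.21 for unlike numbers. The same number thus gave no sign of related tumours, but so few pairs cannot exclude a link.

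The 10 genes, the lists and the settings were chosen with earlier results of these data known. FPKM rescaled to nuclear fragments and the length correction of ratios were added after seeing the data. So were the promoter motifs. A form of GAAANNGAA with 1 more letter was searched first: 3.44% of promoters hold it, with the downstream Ripk1 start among them and not Ripk3, and the shorter form adds the Ripk3 match. Other settings were other filters, pseudocounts and scalings, voom on fragments, length and GC correction (lowess, span 0.3), a replicate block, and left-out tumours. Promoter sequences are from RefSeq (GRCm38.p6).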

Additional observations from a re-analysis of the deposited data

Results flagged for a closer look

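In groups of 4, a tumour was singled out where its gap to the nearest other tumour, as a share of the group's range, exceeded Dixon's critical value at 95%, which chance does in about 1 of 20 groups, and 30 groups were examined. Tumour ICI 1 was the highest of its group for Gsdmd, at 66.0 FPKM with the other ICI tumours between 33.6 and 38.2 FPKM, and for Casp4, at 15.8 FPKM with the others between 6.32 and 7.64 FPKM. It was also the highest for Nlrp3, at 8.78 FPKM with the others between 1.36 and 2.13 FPKM, and for Ripk1, at 5.72 FPKM with the others between 4.23 and 4.27 FPKM. The log2 ratio of Casp4 to Casp1 was −0.45 in ICI 1 and −1.39 to −1.28 in the other ICI tumours. Among RI tumours, Nlrp3 in RI 1 stood out at 2.84 FPKM, with the others between 1.55 and 1.60 FPKM. Of these 6 values 5 belong to ICI 1, the tumour with the 22585 FPKM of neutrophil markers, and the part of those cells in them was not tested.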

How the results depend on the processing

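Of all genes, 2373 were called in the main fit, 241 without a filter, 280 with TPM, 22 with the replicate block, 3 with the block and length and GC correction, 3470 by voom, and 336 (without ICI 4) to 2693 (without ICI 1) with 1 tumour left out, including 672 without RI 2, 999 without RI 1 and 1017 without RI 5. Calls were higher in RI for 62.6% in the main fit, 48.0% with median centring and 53.6% with length and GC correction. TPM moved the median of all genes to 0.11. It divides by the summed FPKM, which was 717092 in RI 4 and 358243 to 367797 in the other RI tumours. In the replicate block, RI 5 and ICI 3 have no partner of the same number. The part of these facts in the changes was not tested, nor was the cause of the other changes.

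Gsdme was the 1 machinery gene that fell. The count that fell was 0 with no filter, a pseudocount of 0.1, TPM, the block with or without the correction, ICI 1 and RI 4 left out, and each single tumour left out (0 to 0). It was 2, Gsdme and Casp1, with upper-quartile scaling, median centring and FPKM per nuclear fragment. With a mean FPKM of at least 5 it was 1, which was Casp1, since Gsdme is below that level. The count that rose was 1 with upper-quartile scaling (Mlkl) and with length and GC correction (Mlkl), 2 with voom, nuclear fragments, and ICI 1 and RI 4 left out (Ripk1 and Mlkl), and 0 to 1 with single tumours left out (Ripk1 without ICI 1). Over all genes, calls higher in RI were 1486 in the main fit, 1774 with upper-quartile scaling and 1447 with length and GC correction. They were 2408 with voom, 2055 with nuclear fragments, 2044 with ICI 1 and RI 4 left out and 1579 without ICI 1. Calls lower in RI were 887 in the main fit, 1545 with upper-quartile scaling, 1623 with median centring and 1314 with nuclear fragments. Of 13439 genes tested, 13330 entered voom and 13320 the correction. With the block, 1 of the 12 called pathway genes (Gzma) and 3 of the 14 called interferon genes were still called, and 0 and 0 with the block and correction. Among uncalled genes, the log2 difference of Ripk1 was −0.0112 with the block and correction, those of Gsdmd and Nlrp3 were 0.12 and 0.13 with ICI 1 and RI 4 left out, and that of Nlrp3 with single tumours left out ran from −0.61 (without ICI 4) to 0.0778 (without ICI 1).

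With a pseudocount of 1 the ratio Gsdme to Gsdmd differed by −0.34 (exact p = 0.114). With ICI 1 and RI 4 left out the ratios differed by −0.67 (Gsdme to Gsdmd), 0.26 (Casp4 to Casp1), −0.73 (Ripk3 to Ripk1) and 0.53 (Mlkl to Ripk3), and length and GC correction gave −0.59 for Ripk3 to Ripk1 and 0.85 for Mlkl to Ripk3. With single tumours left out the ranges were −0.70 to −0.52 for Gsdme to Gsdmd, −0.30 to 0.10 for Casp4 to Casp1 (0.04 without RI 4, 0.10 without ICI 1), −0.54 to 0.0122 for Aim2 to Nlrp3 (0.0122 without ICI 4), −1.15 to −0.86 for Ripk3 to Ripk1 and 0.66 to 1.09 for Mlkl to Ripk3, and the exact p was 0.0286 or 0.0571 for Gsdme to Gsdmd, Ripk3 to Ripk1 and Mlkl to Ripk3. As a paired mean over replicate numbers 1, 2 and 4, with no test, these were −0.63, −0.98 and 0.97.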
